A study of Homo sapiens with 35 samples.

Results

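The genes described here encode the enzymes of cholesterol and fatty acid synthesis and the proteins that set their transcription. They are 33 named genes, found by exact symbol among the 59428 gene rows of the deposited counts. Of these, 18 encode enzymes of the sterol branch, 9 encode enzymes of the fatty acid branch, and 6 encode regulators or a sterol carrier. All 33 had a row in both deposited tables. The counts come from 35 libraries of poly(A) RNA in 13 groups, made from 4 human cell lines of acute myeloid leukaemia.

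In U937 and THP-1, lines of monocytic character, 3 libraries each were labelled sgControl (a control guide RNA), SKO (a guide against SUV39H1) and DKO (guides against SUV39H1 and SUV39H2). U937 cells of the same labels were also treated with an agent called TPA, again with 3 libraries per group and with no dose or time in the labels. Of MOLM-13 there were 2 libraries each of sgControl and SKO, and of OCI-AML-3 there were 2 each of sgControl and DKO. SUV39H1 and SUV39H2 encode enzymes that place H3K9me3, a histone mark of silent chromatin. The series title asks whether these enzymes hold back an immune response to transposable elements. U937, THP-1 and MOLM-13 were grown with 10% fetal bovine serum and OCI-AML-3 with 20%, and serum carries cholesterol and fatty acids. THP-1 medium also held 50 nM BME, in the spelling of the labels. Library names give clone number 1 for THP-1 sgControl and SKO and clone number 3 for untreated U937 DKO, so such a group may be 1 clone, and clone and knockout cannot be told apart. Numeric codes in the library names also differ between DKO and the other untreated groups of U937 and THP-1, and that difference cannot be told apart from the genotype.

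Cholesterol is built from acetyl-CoA through mevalonate, isoprenoid units, squalene and lanosterol, and fatty acids are built from acetyl-CoA through malonyl-CoA, followed by elongation and desaturation. Transcription of both branches is driven by the sterol regulatory element-binding proteins (SREBPs), encoded by SREBF1 and SREBF2. SCAP carries these proteins out of the endoplasmic reticulum when sterols are low, and the INSIG proteins hold the SCAP complex back when sterols are high. SREBF2 is known mainly for the sterol branch and SREBF1 for the fatty acid branch. INSIG1 is itself a target of the SREBPs. Macrophages and leukaemia cells of myeloid type use both synthesis and uptake of lipids, and oxysterol receptors (LXRs) turn on export of surplus sterol.

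The promoters of 4 members that rose in the DKO libraries of THP-1 or U937 are shown with matches to CCAAT. This is the motif of NF-Y, a factor that acts beside the SREBPs on many of these genes. Of the 4, LSS rose in THP-1 DKO and was lower in U937 DKO. The sequences are those of RefSeq (GRCh38.p14), 5′ to 3′ on the gene's strand, cut to the stretch before the RefSeq start that lies outside the exons of the count table. Capitals mark CCAAT or its reverse complement ATTGG.
HMGCS1, chr5:43313513-43313662, reverse strand: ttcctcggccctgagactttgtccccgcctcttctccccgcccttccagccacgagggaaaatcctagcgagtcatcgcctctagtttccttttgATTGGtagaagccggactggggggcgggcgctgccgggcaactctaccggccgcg
MSMO1, chr4:165327419-165327666, forward strand: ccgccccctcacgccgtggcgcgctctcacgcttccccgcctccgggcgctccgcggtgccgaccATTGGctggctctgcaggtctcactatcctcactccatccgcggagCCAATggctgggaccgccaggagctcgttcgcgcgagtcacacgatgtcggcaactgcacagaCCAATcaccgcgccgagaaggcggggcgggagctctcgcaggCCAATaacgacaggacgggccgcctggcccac
LSS, chr21:46228825-46229024, reverse strand: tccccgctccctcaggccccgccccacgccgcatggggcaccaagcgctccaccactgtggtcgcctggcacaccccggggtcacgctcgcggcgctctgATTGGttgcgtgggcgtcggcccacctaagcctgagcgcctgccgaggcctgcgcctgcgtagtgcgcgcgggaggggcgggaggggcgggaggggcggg
INSIG1, chr7:155297628-155297775, forward strand: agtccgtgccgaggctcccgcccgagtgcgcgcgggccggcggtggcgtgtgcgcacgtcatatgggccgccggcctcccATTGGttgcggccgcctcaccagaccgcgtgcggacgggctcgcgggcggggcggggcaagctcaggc
HMGCS1 makes HMG-CoA, LSS closes squalene epoxide into lanosterol, and MSMO1 removes methyl groups from the sterol ring. MSMO1 has 4 such matches in 248 bases, and HMGCS1, LSS and INSIG1 have 1 each in the shorter stretches shown.

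RefSeq windows of 300 bases (250 before and 50 after the start) were found for 29 of the 33 members, and motifs were searched on both strands. ACAT2, SQLE, FDFT1 and FASN had no entry. CCAAT was found in 22 of 29 members (75.9%), in 13 of 15 sterol enzymes (86.7%) and in 39.7% of all 27305 genes with a window. The GC box GGGCGG was found in 27 of 29 members (93.1%) and in 48.3% of all genes. The E-box CACGTG was found in 5 members (17.2%) and in 8.77% of all genes. The form TCACNCCAC of the sterol regulatory element was found in 1 member, SREBF2 (3.45%), and in 1.39% of all genes. These are matches of letters, not measured sites of binding, and motifs can overlap. The 27305 genes include genes that were not tested here, and the shares among tested genes were not counted.

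The libraries held 31985767 to 61178704 counted reads. Levels are given in CPM, read counts scaled to a common library size, after one scaling of all 35 libraries. Fold changes are log2 values with their standard error, and adjusted p values are from the quasi-likelihood test of edgeR across all genes, with 0.05 as the threshold. Mean SUV39H1 levels went against the labels in untreated U937 (66.3 CPM with the control guide, 112.6 in SKO and 83 in DKO) and THP-1 (35.3, 95.5 and 55.2 CPM), where transcripts were higher in the knockout libraries. It was also higher in TPA SKO (36.8 to 53.6 CPM, 0.55 ± 0.055, adjusted p = 2.7e-09) and lower in TPA DKO (22.3 CPM). A guide can disrupt a gene and leave its transcript, and the labels are used here as given. SUV39H1 was lower in MOLM-13 SKO (28.7 to 7.63 CPM) and in OCI-AML-3 DKO (35.8 to 3.48 CPM). SUV39H2 fell in the DKO libraries of U937 (43 to 32.8 CPM, -0.39 ± 0.06), THP-1 (31.9 to 13.8 CPM, -1.11 ± 0.073), TPA-treated U937 (20.2 to 9.91 CPM, -1.01 ± 0.08) and OCI-AML-3 (24.1 to 19.1 CPM, -0.33 ± 0.093). It also fell in SKO libraries, which carry no guide against it by their label, of MOLM-13 (27.5 to 12.3 CPM, -1.15 ± 0.082), THP-1 (-0.63 ± 0.069) and untreated U937 (-0.27 ± 0.06), and had 0.05 ± 0.074 in TPA SKO. Of 8 myeloid markers, 6 or 7 were above 1 CPM in every group. None of 6 adipocyte and hepatocyte markers was above 1 CPM in any group, and of 6 erythroid and megakaryocyte markers at most 1 was. Summed lymphoid markers were between 3.68 and 208.5 CPM, led by NKG7 in U937 (159 CPM in sgControl). The epithelial and stromal list summed to between 69.8 and 647 CPM, mostly PECAM1, which myeloid cells also make.

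Per kilobase of exon, SCD, which desaturates stearate and palmitate, was the most abundant member in the sgControl libraries of U937 (243.6 CPM per kb), MOLM-13 (199.6) and OCI-AML-3 (109.3), and it was close to ACLY in THP-1 (76.8 against 77.1). FDFT1, the squalene synthase gene, came next in U937 (91.4 CPM per kb) and MOLM-13 (110 CPM per kb). CYP51A1, the lanosterol demethylase gene, was low per kilobase in all 4 lines (1.11 to 2.25 CPM per kb), but 84.5% of its exon bases also belong to another gene row. Reads over such shared bases were left uncounted in the untreated U937 and THP-1 libraries, and no counting rule is given for the other libraries. The same limit holds for HMGCS1 (37.7% of exon bases shared), EBP (36.4%) and ACAT2 (22.2%). ELOVL6, an elongase gene, had 33.6 and 35.5 CPM in the MOLM-13 sgControl libraries and less than 1 CPM in every library of the other lines. HSD17B7, a sterol ketoreductase gene, had 0 to 6 reads per U937 library, with or without TPA, and 10.2 to 10.6 CPM in THP-1 sgControl. HSD17B7 has near-identical copies in the genome, so its count is uncertain.

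Before any knockout, most members were lower in THP-1 than in U937. In the sgControl libraries 8 members were higher in THP-1, 22 were lower and 2 did not pass the test, while 42.3% of the 18715 genes tested were higher and 33.9% lower (76.3% in either direction). LSS was 38.5, 36.2 and 34.7 CPM in THP-1 and 150.5, 146.7 and 155.6 CPM in U937 (log2 difference -2.07 ± 0.05, adjusted p = 3.6e-29). EBP, the sterol isomerase gene, was 15.8 to 16.9 CPM in THP-1 and 56.3 to 57.7 CPM in U937. SCD was 395.4 to 412.2 CPM in THP-1 and 1243 to 1306 CPM in U937. TM7SF2, a sterol reductase gene, was the other way round, at 9.22 to 10.6 CPM in THP-1 and 1.94 to 2.6 CPM in U937. The ranges of the lines did not overlap for any of these genes, and over all 33 members they did not overlap for 30. The share of all genes without overlap was not counted. Line and deposited library codes cannot be told apart in this comparison.

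**Figure D1:**
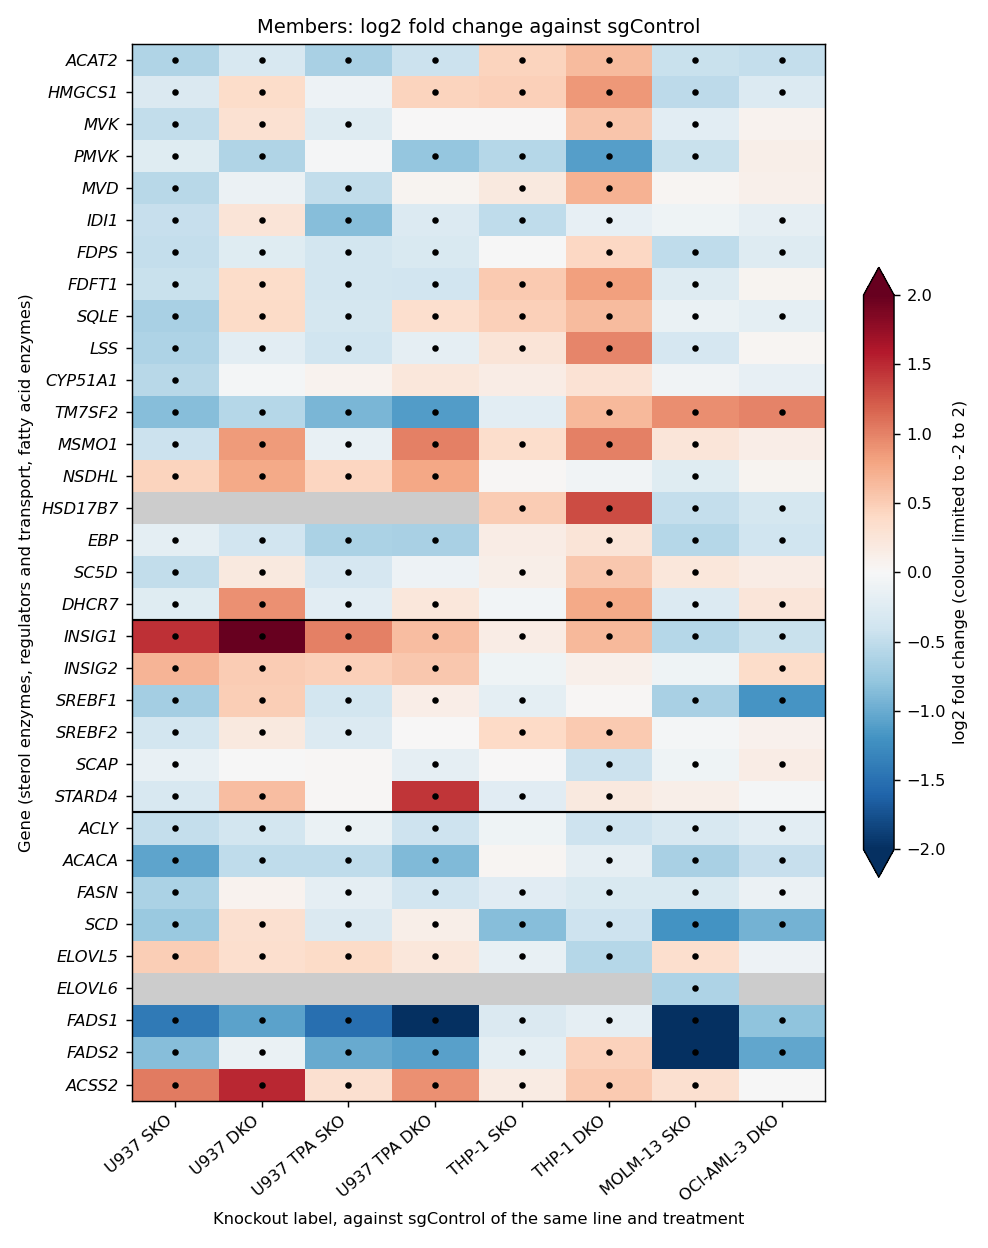
Log2 fold change of each member (rows, with lines between sterol enzymes, regulators and fatty acid enzymes) in 8 comparisons of a knockout label with sgControl (columns). Red is higher, blue is lower, dots mark an adjusted p under 0.05 and grey was not tested; FADS1 is blue in all 8 columns and 16 of 17 tested sterol rows are blue in U937 SKO while 14 of 18 in THP-1 DKO are red with a dot, PMVK and IDI1 being blue in both.

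In U937 SKO libraries nearly the whole sterol branch was lower than in sgControl. Of 17 sterol enzymes tested 16 fell and 1 rose, with a median of -0.47 against 0.00 over all genes, where 30.7% of the 14915 genes tested were higher and 31.2% lower (61.9% in either direction). Over all 31 members tested 5 rose and 26 fell. The summed myeloid markers stood at 455.2 CPM for sgControl, 843.5 CPM for SKO and 778.4 CPM for DKO. The 7 markers other than LYZ, a gene set apart after its values were seen, summed to 185.2, 360.5 and 385.4 CPM, and the markers' part in these differences was not tested. In bulk libraries fewer cells of a type and less RNA per cell cannot be told apart. SQLE, the squalene epoxidase gene, was 204.6, 207.6 and 216.7 CPM in sgControl and 133.8, 128.9 and 139.4 CPM in SKO. All 3 SKO libraries lay below all sgControl libraries, and SQLE fell by 0.65 ± 0.038 (adjusted p = 9.2e-15). LSS went from 146.7 to 155.6 CPM down to 96.8 to 99.4 CPM (-0.62 ± 0.039). TM7SF2 had the largest fold change of the branch, -0.86 ± 0.24, at levels of 1.1 to 2.6 CPM, and its adjusted p was 0.06 with only the 6 U937 libraries whose names lack the code S0_L001. The member that rose was NSDHL, encoding a sterol dehydrogenase (43.6 to 44.6 CPM in sgControl and 59.2 to 61 CPM in SKO, 0.44 ± 0.05). NSDHL lies on chromosome X, where the genes within the same 20 Mb had a median fold change of 0.72 after the median of all genes was subtracted.

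The fatty acid branch fell with it in U937 SKO, while the INSIG genes rose. Of 8 fatty acid enzymes tested 6 fell and 2 rose, with a median of -0.69. FADS1, encoding the delta-5 desaturase of polyunsaturated fatty acids, was 297.3, 299.3 and 289.6 CPM in sgControl and 112.3, 107.3 and 112.5 CPM in SKO. The groups were far apart, and FADS1 fell by 1.42 ± 0.037 (adjusted p = 7e-23). ACACA, whose product makes malonyl-CoA, was 88.2 to 100.5 CPM in sgControl and 45.5 to 46.3 CPM in SKO (-1.06 ± 0.05). SCD was 1243 to 1306 CPM and then 761.8 to 763.7 CPM. Against this direction, ACSS2, which makes acetyl-CoA from acetate, was 19.3 to 21.6 CPM in sgControl and 40.4 to 42.9 CPM in SKO (1.04 ± 0.06, adjusted p = 5.9e-15). ELOVL5, an elongase gene, also rose (0.5 ± 0.037), and the genes within 20 Mb of it on chromosome 6 had a median of 0.76. Among the regulators, INSIG1 was 194.6, 196.6 and 194.1 CPM in sgControl and 534.7, 533.3 and 553.8 CPM in SKO (1.47 ± 0.033, adjusted p = 1.3e-24), and its surroundings on chromosome 7 had a median of 0.55. INSIG2 rose (0.67 ± 0.073) with surroundings at -0.01, and SREBF1 fell (-0.68 ± 0.056, from 56.2 to 67.1 CPM to 37.1 to 40 CPM).

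In U937 DKO libraries the regulators and part of the sterol branch were above sgControl instead. Of 17 sterol enzymes 9 rose and 6 fell (median 0.19), and of 6 regulators 5 rose and none fell, while 33.2% of all genes were higher and 34.5% lower (67.7% in either direction). DHCR7, the last reductase of cholesterol synthesis, was 117.3, 113.8 and 112.9 CPM in sgControl and 211.7, 221.2 and 220.4 CPM in DKO (0.92 ± 0.041, adjusted p = 1.1e-17). MSMO1 was 39.6, 41.5 and 39.8 CPM in sgControl and 70.7, 73.6 and 73.4 CPM in DKO (0.84 ± 0.053). Neither gene overlapped between the groups, and the genes around each had medians near 0 (0.01 and 0.00). Of the 33 members in all, 27 did not overlap, and the share of all genes without overlap was not counted. NSDHL rose by 0.76 ± 0.049 with surroundings at 0.78. PMVK, encoding phosphomevalonate kinase, fell from 74.4 to 82.3 CPM to 51.3 to 52.1 CPM (-0.61 ± 0.048), and EBP fell (-0.38 ± 0.05). TM7SF2 was also called lower (-0.58 ± 0.24, adjusted p = 0.034), at 1.34 to 2.04 CPM in DKO, and its adjusted p was 0.091 with DESeq2, 0.092 or 0.12 without sgControl replicate 1 or 2, and 0.12 without DKO replicate 1 or 2.

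INSIG1 had the largest fold change of any member against sgControl in U937 DKO. Its levels were 839.5, 850.9 and 857.7 CPM, above all sgControl and SKO libraries (2.12 ± 0.033 against sgControl, adjusted p = 1.9e-28), with surroundings at 0.05. STARD4, a carrier of cholesterol between membranes, was 35 to 37.8 CPM in DKO and 23.3 to 24.3 CPM in sgControl (0.62 ± 0.064). In the fatty acid branch 3 of 8 enzymes rose and 4 fell. ACSS2 reached 55.9 to 60 CPM (1.5 ± 0.06, adjusted p = 6e-19). FADS1 stayed under sgControl, at 144.4, 140.2 and 138.9 CPM (-1.07 ± 0.037), and ACACA was also lower (-0.52 ± 0.049). ELOVL5 rose by 0.34 ± 0.037, with surroundings at 0.68.

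Set directly against each other, U937 DKO libraries were above SKO libraries across both branches. Of 17 sterol enzymes 14 were higher and 2 lower, of 6 regulators 5 were higher, and of 8 fatty acid enzymes 7 were higher and 1 lower, against 24.1% and 24.9% of all genes (49% in either direction). MSMO1 was 1.27 ± 0.054 higher in DKO (28.8 to 31.9 CPM in SKO), DHCR7 1.17 ± 0.042, SQLE 1.03 ± 0.039, SREBF1 1.17 ± 0.056 (37.1 to 40 and 86.3 to 89.2 CPM) and SCD 1.06 ± 0.03 (1551 to 1631 CPM in DKO). PMVK (-0.37 ± 0.049), EBP (-0.18 ± 0.051) and ELOVL5 (-0.16 ± 0.037) were lower in DKO. Summed over the branch, sterol enzymes were 1717 ± 21.4 CPM (SD, n = 3) in sgControl, 1274 ± 11.4 in SKO and 2033 ± 42.6 in DKO. Fatty acid enzymes were 3148 ± 80.6, 2107 ± 26.3 and 3311 ± 56.1 CPM. The 3 ranges of each branch did not overlap. SCD alone made up 1243 to 1306 CPM of the fatty acid sum in sgControl and 1551 to 1631 CPM in DKO. Against sgControl 3 of the 8 fatty acid enzymes tested were higher in DKO and 4 lower, so the higher sum does not describe the whole branch.

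**Figure D2:**
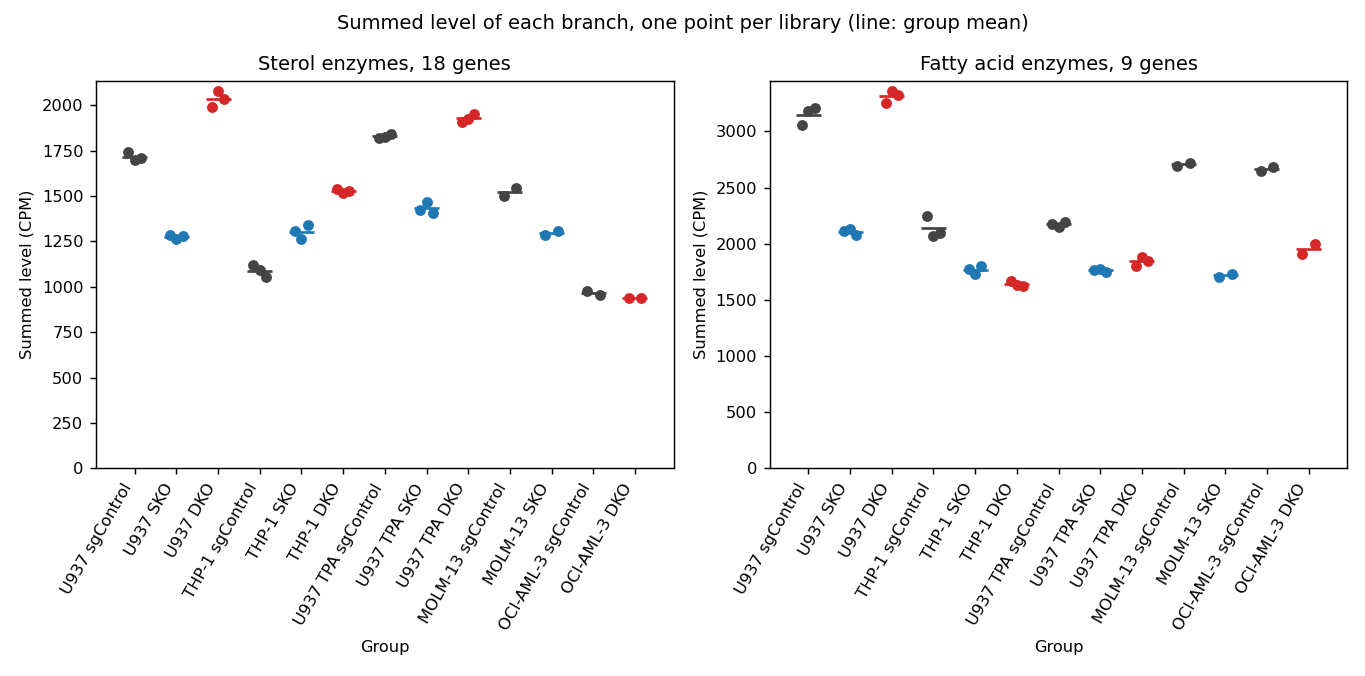
Summed CPM of the 18 sterol enzymes (left) and the 9 fatty acid enzymes (right) in each library, by group, with sgControl in black, SKO in blue, DKO in red and the group mean as a line. In THP-1 the sterol points climb from sgControl (1089 CPM) to DKO (1528 CPM) while the fatty acid points go down (2140 to 1644 CPM).

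In THP-1 the branches moved apart. Of 18 sterol enzymes in SKO 9 rose and 2 fell (median 0.15 against 0.01 over all genes), while 1 of 8 fatty acid enzymes rose and 5 fell (median -0.18); 20.6% of the 18585 genes tested were higher and 22.8% lower (43.5% in either direction). The fatty acid enzyme that rose in SKO was ACSS2 (0.17 ± 0.06, adjusted p = 0.025), which did not pass without sgControl replicate 2 or 3 or without SKO replicate 1 or 2 (adjusted p of 0.06 to 0.12). In DKO 14 of 18 sterol enzymes rose and 2 fell (median 0.63 against 0.05), and 2 of 8 fatty acid enzymes rose and 6 fell (median -0.25), with 31.9% and 33.7% of all genes (65.6% in either direction). Summed myeloid markers were 824.1, 1024 and 1272 CPM in sgControl, SKO and DKO. LYZ held most of that rise (92.2, 268 and 479 CPM), the other 7 summed to 731.9, 756.4 and 792.9 CPM, SPI1 went from 239 to 220 and 174 CPM, and the markers' part was not tested. MSMO1 was 35.5, 37.3 and 32.9 CPM in sgControl, 43.9, 45.4 and 45.2 CPM in SKO and 64.9, 65.9 and 67.5 CPM in DKO (1.01 ± 0.054 in DKO, adjusted p = 2.7e-16). HSD17B7 went from 10.2 to 10.6 CPM to 13.4 to 15.5 and 22 to 25.6 CPM (0.51 ± 0.086 in SKO and 1.3 ± 0.086 in DKO). The 3 groups did not overlap for either gene. LSS rose in DKO to 64.4 to 71.2 CPM (0.98 ± 0.058, adjusted p = 3.6e-15). FDFT1 rose in SKO (0.53 ± 0.039, from 243.5 to 271.9 CPM to 353 to 381.7 CPM). PMVK fell in both, to 35.7 to 37.3 CPM in SKO (-0.57 ± 0.064) and to 21.9 to 25.4 CPM in DKO (-1.1 ± 0.068), from 50.7 to 61.1 CPM.

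Among the THP-1 regulators 2 rose and 2 fell in SKO, and 3 rose and 1 fell in DKO. INSIG1 was 99.5 to 104.8 CPM in sgControl and 146.8 to 151.5 CPM in DKO (0.65 ± 0.042), and SREBF2 rose in SKO (0.39 ± 0.04) and DKO (0.52 ± 0.04). SCAP fell in DKO to 72.3 to 78.9 CPM from 103.1 to 119.6 CPM (-0.43 ± 0.05). SCD was 412.2, 400.2 and 395.4 CPM in sgControl, 222.6, 216.6 and 226.8 CPM in SKO (-0.85 ± 0.037, adjusted p = 3.8e-18) and 278, 284.5 and 278.4 CPM in DKO. SCD lies on chromosome 10 in a stretch of 20 Mb whose genes had a median of -0.99 in SKO and of -1.17 in DKO. IDI1, the isopentenyl isomerase gene at the other end of that chromosome, fell in SKO (-0.51 ± 0.048) and DKO (-0.16 ± 0.048) with surroundings at -1.01 and -1.29. ELOVL5 fell in DKO (-0.57 ± 0.04, from 216.2 to 224.1 CPM to 134.7 to 138.9 CPM), and ACSS2 rose (0.52 ± 0.061, to 41.9 to 46.2 CPM). DKO against SKO gave 14 sterol enzymes higher and 1 lower, against 25.3% and 28.5% of all genes (53.8% in either direction), and 4 fatty acid enzymes higher and 3 lower.

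The effect of the SKO label differed between U937 and THP-1 for 28 of 32 members, 7 more positive in U937 and 21 more negative, while 24.1% and 22.7% of the 18715 genes tested were (46.9% in either direction). SQLE was lower in U937 SKO and higher in THP-1 SKO (199.8 to 205.8 CPM in sgControl and 269.8 to 285.4 CPM in SKO), a difference of -1.11 ± 0.055 (adjusted p = 9.2e-19). The effect of the DKO label differed for 27 members, 13 more positive and 14 more negative in U937 (29.7% and 24.7% of all genes, 54.4% in either direction). INSIG1 had differences of 1.33 ± 0.053 (SKO) and 1.51 ± 0.053 (DKO), with both effects positive and larger in U937. FADS1 was called lower in both lines, with a difference of -1.12 ± 0.054 for SKO.

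**Figure D3:**
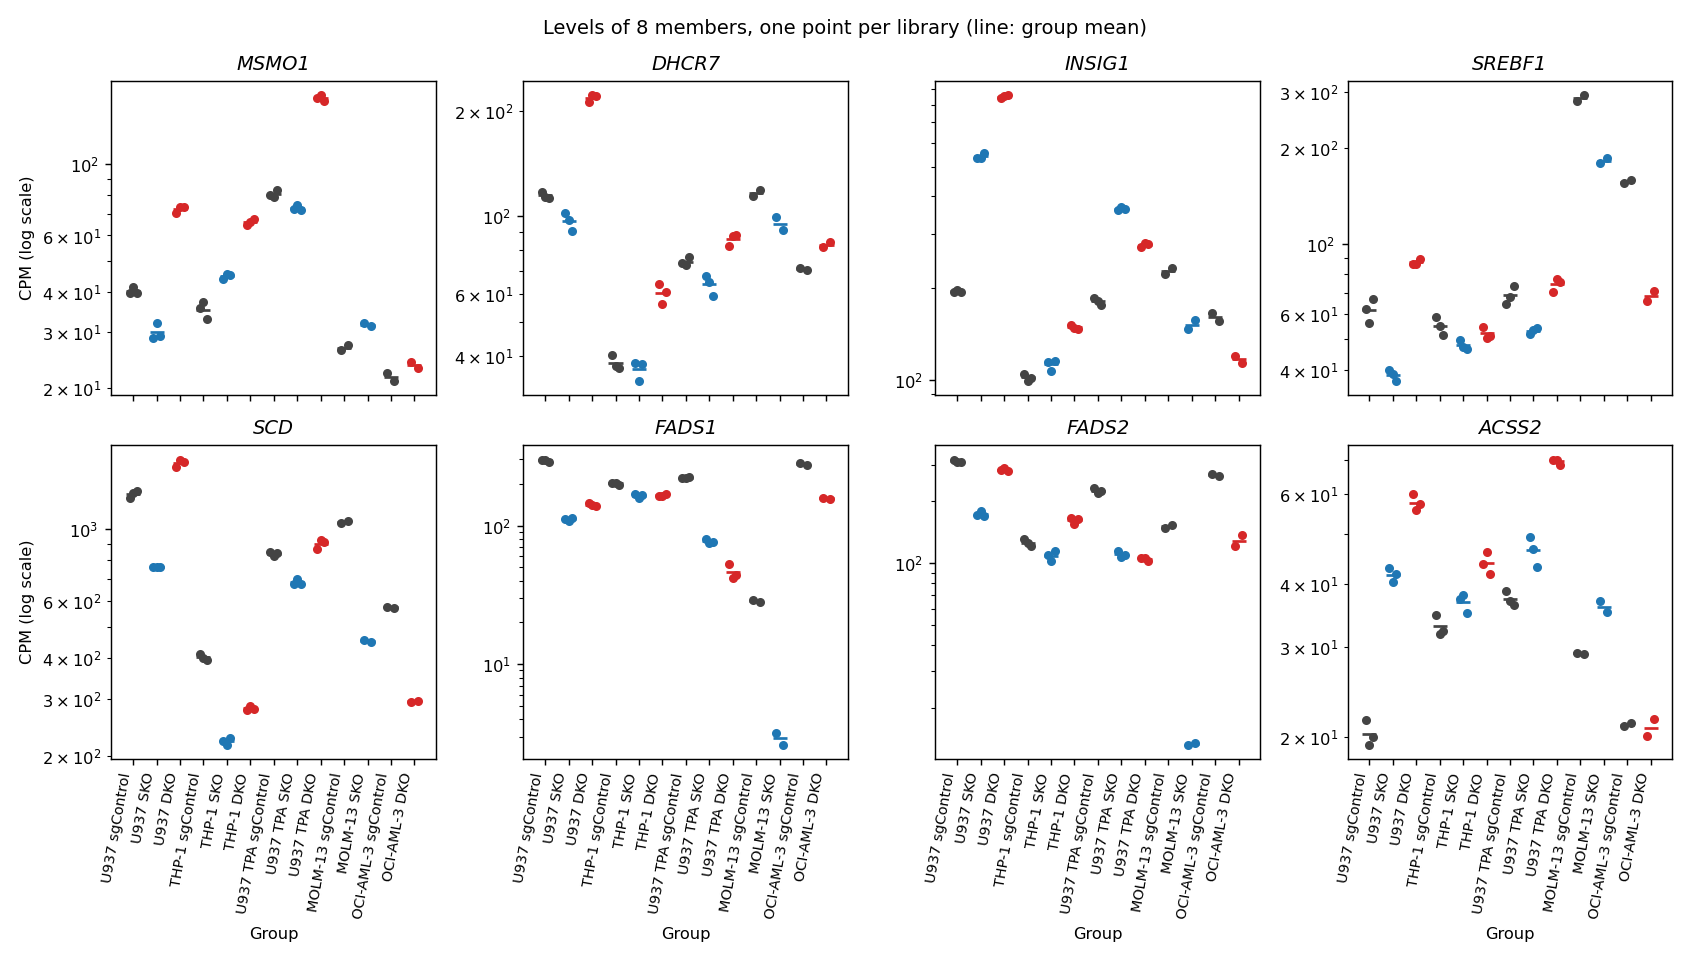
Level in CPM (log axis) of 8 members in each of the 35 libraries, by group, with sgControl in black, SKO in blue, DKO in red and the group mean as a line. INSIG1 and ACSS2 are above sgControl in both knockout labels of U937, and FADS1 and FADS2 drop to 2.61 to 13.4 CPM in the MOLM-13 SKO libraries.

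Under TPA the SKO libraries of U937 again had lower sterol enzymes, and FADS1 was the member furthest below sgControl. Of 17 sterol enzymes 13 fell and 1 rose (median -0.35 against 0.00 over all genes), and 6 of 8 fatty acid enzymes fell and 2 rose, with 25.8% of the 16246 genes tested higher and 24.6% lower (50.4% in either direction). FADS1 was 222, 219.5 and 222.2 CPM in TPA sgControl and 80.4, 75.3 and 76.3 CPM in TPA SKO (-1.51 ± 0.052). In TPA DKO it was 52.5, 41.6 and 44 CPM, below every SKO library (-2.25 ± 0.055 against sgControl, adjusted p = 4.2e-23). FADS2, the delta-6 desaturase gene beside it, was 219.2 to 231.7 CPM in TPA sgControl, 107.3 to 115.1 CPM in SKO (-1.01 ± 0.038) and 102.7 to 106.6 CPM in DKO (-1.09 ± 0.038). TM7SF2 fell in SKO (-0.92 ± 0.24) and DKO (-1.12 ± 0.24), and IDI1 fell in SKO (-0.84 ± 0.045, from 112.3 to 115.8 CPM to 61.5 to 65.1 CPM).

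TPA DKO libraries had 5 sterol enzymes higher and 8 lower than sgControl, with 34.1% and 36.5% of all genes (70.6% in either direction). STARD4 was 46.4, 45.8 and 46.4 CPM in sgControl, 47.5, 47.1 and 45.4 CPM in SKO and 120.7, 128.5 and 122.3 CPM in DKO (1.43 ± 0.044, adjusted p = 5.3e-21). Its sgControl and SKO libraries overlapped, and all DKO libraries were above them. MSMO1 was 79.4 to 83.2 CPM in sgControl and 158.2 to 164.3 CPM in DKO (1 ± 0.038). INSIG1 was 176.4 to 185.2 CPM in sgControl, 360.8 to 370.4 CPM in SKO (1.01 ± 0.032) and 272.8 to 280.4 CPM in DKO (0.62 ± 0.032), so that DKO lay under SKO (-0.39 ± 0.032). ACSS2 rose in DKO to 68.5 to 70.2 CPM from 36.4 to 38.7 CPM (0.91 ± 0.053), and ACACA fell to 27.2 to 30.2 CPM from 51.3 to 56.7 CPM (-0.88 ± 0.061). DKO against SKO gave 11 sterol enzymes higher and 1 lower, and 2 fatty acid enzymes higher and 5 lower (31.3% and 32.4% of all genes, 63.7% in either direction).

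TPA against untreated cells gave a split within the sterol branch in each of the 3 cell labels. The treated and untreated libraries were deposited in different tables, so treatment and table cannot be told apart. In sgControl cells 6 of 17 sterol enzymes were higher and 9 lower, and 1 of 9 fatty acid enzymes was higher and 7 lower, with 34.6% and 33.2% of the 16989 genes tested (67.7% in either direction). The SKO cells had 5 and 9 sterol enzymes and 1 and 6 fatty acid enzymes (31.5% and 31.4% of all genes, 62.9% in either direction); the 1 higher, ACSS2 at 0.19 ± 0.055, did not pass without TPA SKO replicate 1 (adjusted p = 0.053). The DKO cells had 3 and 9, and 2 and 7 (36.9% and 36.2%, 73.1% in either direction). The 2 higher include ELOVL6, which had 0 reads in untreated DKO and under 1 CPM in TPA DKO, and did not pass without any of the 3 untreated DKO libraries or without TPA DKO replicate 1 or 3. SQLE was 204.6 to 216.7 CPM untreated and 584 to 596.5 CPM under TPA in sgControl cells (1.5 ± 0.035, adjusted p = 7.9e-30), 1.81 ± 0.035 higher in SKO and 1.47 ± 0.034 in DKO. MSMO1 was higher by 1.02 ± 0.045, 1.32 ± 0.047 and 1.19 ± 0.043, and STARD4 by 0.97 ± 0.052, 1.32 ± 0.054 and 1.8 ± 0.05. PMVK fell by 1.02 ± 0.057, 0.79 ± 0.057 and 1.17 ± 0.062. No library of the treated cells overlapped the untreated ones for these 4 genes within a label. Over all 33 members 27 did not overlap in each label, and the share of all genes without overlap was not counted. Summed myeloid markers were 455.2 CPM in untreated sgControl and 1206 CPM under TPA, 843.5 and 1052 CPM in SKO, and 778.4 and 1384 CPM in DKO. Without LYZ the sums were 185.2 and 571.8, 360.5 and 858.1, and 385.4 and 1222 CPM, while LYZ was higher under TPA in sgControl cells (270 and 634 CPM) and lower in SKO (483 and 194 CPM) and DKO (393 and 162 CPM). The markers' part in these differences was not tested.

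**Figure D4:**
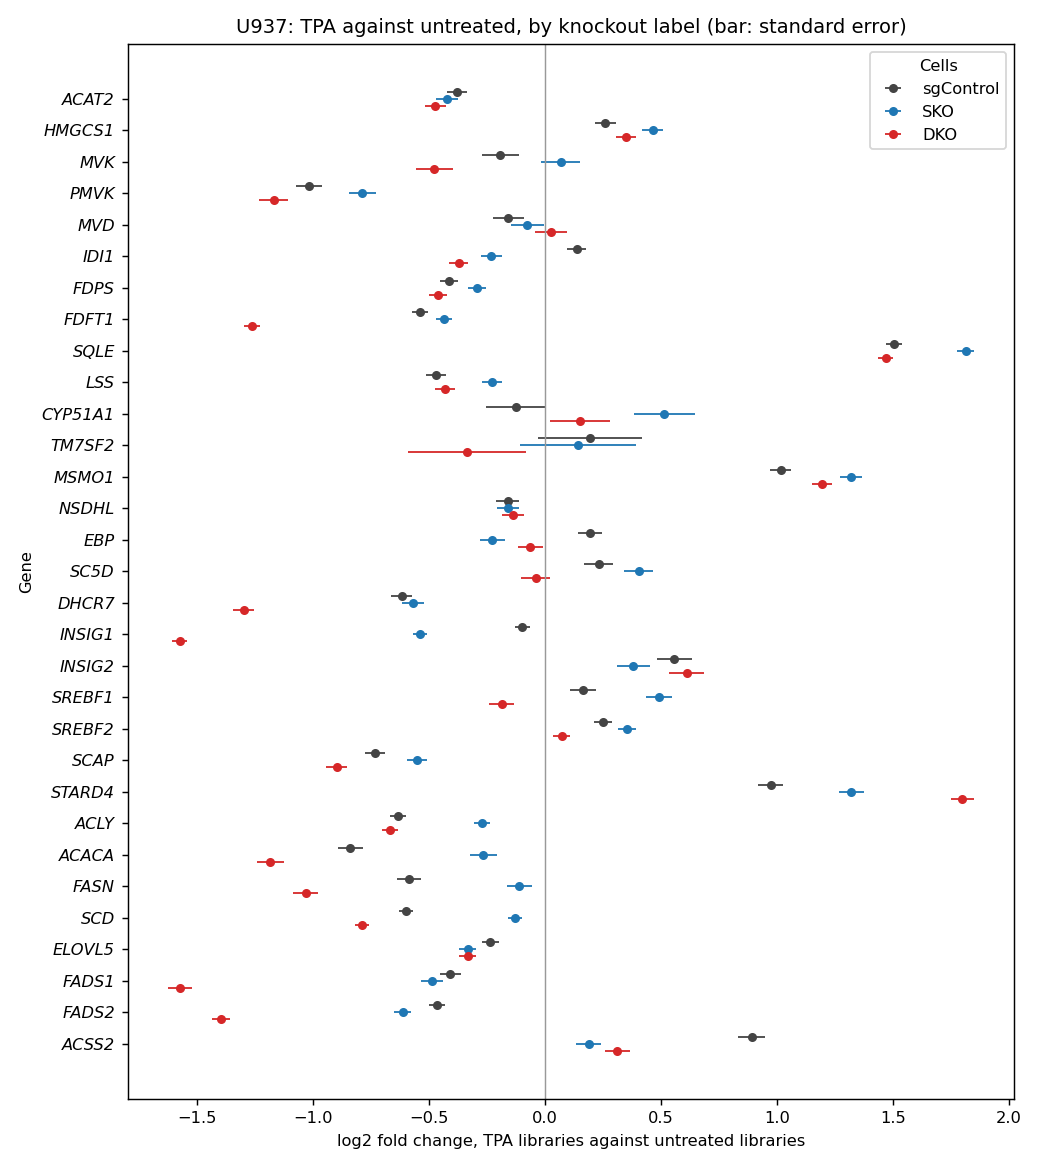
Log2 fold change of TPA against untreated U937 libraries for 31 members (rows), in sgControl (black), SKO (blue) and DKO (red) cells, with bars of 1 standard error. INSIG1, FDFT1, DHCR7, FADS1 and FADS2 have the DKO point well left of the others, and STARD4 has it to the right.

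The response to TPA differed from that of sgControl cells for 18 of 32 members in SKO (13 more positive, 5 more negative, with 19.6% and 18.1% of all genes, 37.7% in either direction) and for 18 in DKO (2 and 16, with 21.7% and 27.8%, 49.6% in either direction). The 2 more positive were STARD4 and MSMO1, and MSMO1 (0.18 ± 0.062) did not pass without sgControl replicate 2 (adjusted p = 0.054). INSIG1 was 194.1 to 196.6 CPM untreated and 176.4 to 185.2 CPM under TPA in sgControl cells, but 839.5 to 857.7 and 272.8 to 280.4 CPM in DKO cells. The difference of the responses was -1.48 ± 0.045 (adjusted p = 3.1e-25). FADS1 was 138.9 to 144.4 CPM in untreated DKO and 41.6 to 52.5 CPM under TPA, a response 1.17 ± 0.069 more negative than in sgControl cells on the log2 scale. FDFT1 had a difference of -0.73 ± 0.049, with 592.1 to 644.5 CPM in untreated DKO and 245.3 to 252.3 CPM under TPA. In SKO cells ACSS2 (-0.7 ± 0.081) and INSIG1 (-0.44 ± 0.044) had the more negative response and CYP51A1 the more positive one (0.64 ± 0.18), at 4.56 to 8.17 CPM. Of the CYP51A1 exon bases 84.5% also belong to another gene row, and no counting rule is given for the TPA libraries. STARD4 in DKO was 0.83 ± 0.072 more positive. Treated and untreated libraries were deposited in different tables, and a clone number is given for untreated U937 DKO only. A difference of table or clone that varies with the label cannot be told apart from a difference in response. SUV39H1 was above sgControl in untreated DKO (0.32 ± 0.046) and below it in TPA DKO (-0.71 ± 0.059).

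MOLM-13 SKO libraries had lower levels in both branches, with the desaturases lowest. Of 18 sterol enzymes 12 fell and 3 rose (median -0.25 against 0.02 over all genes), and of 9 fatty acid enzymes 7 fell and 2 rose (median -0.61), with 31.8% of the 15472 genes tested higher and 32.2% lower (64% in either direction). FADS2 was 148.9 and 153.6 CPM in sgControl and 13.2 and 13.4 CPM in SKO (-3.5 ± 0.05, adjusted p = 3.2e-31). FADS1 was 29.2 and 28.1 CPM in sgControl and 3.21 and 2.61 CPM in SKO (-3.29 ± 0.11, adjusted p = 6.9e-22). SCD was 1039 and 1055 CPM and then 456.2 and 450.1 CPM (-1.2 ± 0.025). The pairs of libraries were far apart for all 3 genes, and over all 33 members they did not overlap for 30. The share of all genes without overlap was not counted. ELOVL6 fell from 33.6 and 35.5 CPM to 22 and 22.9 CPM. SREBF1 fell from 281 and 292.6 CPM to 179.1 and 185.8 CPM (-0.64 ± 0.03), and INSIG1 fell (-0.57 ± 0.033, from 222.6 and 232.5 CPM to 146.6 and 157.2 CPM). TM7SF2 rose from 14.9 and 14.4 CPM to 26.9 and 28.3 CPM (0.93 ± 0.077). Summed myeloid markers were 1480 CPM in sgControl and 8738 CPM in SKO, nearly all of the difference being LYZ (581 and 7610 CPM). The other 7 summed to 898.5 and 1128 CPM, MPO went from 352 to 119 CPM, and the markers' part in these differences was not tested.

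FADS1 (chr11:61799627-61829318, reverse strand) and FADS2 (chr11:61792980-61867354, forward strand; hg38) overlap, and 5.57% and 5.11% of their exon bases belong to another row as well. The neighbours were singled out after their values were seen. In MOLM-13 SKO the replication nuclease gene FEN1, which overlaps the 5′ end of FADS2, fell by 1.64 ± 0.04 (157.3 to 50.2 CPM), while FADS3, on the other side, rose by 0.9 ± 0.19 (2.37 to 4.43 CPM). Further along, FTH1 rose by 2.3 ± 0.13 and BEST1 by 2.03 ± 0.22, while INCENP fell by 1.2 ± 0.044. The genes within the same 20 Mb had a median of -0.02. FEN1 also fell in U937 TPA DKO (-1.53 ± 0.053) and OCI-AML-3 DKO (-0.9 ± 0.057), where FADS1 was lower too. In U937 SKO FEN1 had a fold change of -0.07 ± 0.039 (adjusted p = 0.11), beside -1.42 for FADS1. MYRF, on the far side of FEN1, fell by 1.77 ± 0.083 (28.8 to 8.43 CPM), TMEM258 fell by 0.31 ± 0.072 and FADS3 fell by 0.57 ± 0.11. Other neighbours went both ways in U937 SKO. DAGLA rose by 1.42 ± 0.15 (2.26 to 6.01 CPM), RAB3IL1 by 0.79 ± 0.069, TMEM216 by 0.61 ± 0.092 and INCENP by 0.32 ± 0.038, while DDB1 fell by 0.42 ± 0.034.

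OCI-AML-3 DKO libraries differed from sgControl in the fatty acid branch and in SREBF1, with few sterol enzymes higher. Of 8 fatty acid enzymes 6 fell and none rose (median -0.34 against 0.02 over all genes), and of 18 sterol enzymes 7 fell and 2 rose (median 0.04), with 24.3% of the 16175 genes tested higher and 25.6% lower (49.9% in either direction). The 7 sterol enzymes that fell became 4 without an expression filter, 2 without sgControl replicate 1, 4 without DKO replicate 1 and 3 without DKO replicate 2. SREBF1 was 155 and 158.3 CPM in sgControl and 65.8 and 71.1 CPM in DKO (-1.18 ± 0.059, adjusted p = 4.6e-23). FADS2 was 270.9 and 264.1 CPM and then 121.4 and 136.6 CPM (-1.04 ± 0.055), and SCD 576.2 and 570.4 CPM and then 294 and 295.1 CPM (-0.95 ± 0.049). FADS1 fell by 0.81 ± 0.052, from 280.3 and 273.7 CPM to 158.9 and 154.8 CPM. The pairs did not overlap for these 4 genes, and over all 33 members they did not overlap for 26. The share of all genes without overlap was not counted. INSIG1 fell (-0.45 ± 0.056), and TM7SF2 rose from 8.86 and 8.95 CPM to 17.8 and 17.3 CPM (0.99 ± 0.1). Over all members 4 rose and 15 fell; without sgControl replicate 1 the count that fell was 9, and without sgControl replicate 2 the count that rose was 1. Summed myeloid markers were 670.6 CPM in sgControl and 1737 CPM in DKO, with LYZ at 234 and 1090 CPM and the other 7 at 436.6 and 646.6 CPM, and the markers' part was not tested.

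Across the 8 comparisons with sgControl, in which SKO and DKO of a line share their sgControl libraries, FADS1 was called lower each time. Its fold changes were -1.42 and -1.07 in U937, -1.51 and -2.25 under TPA, -0.29 and -0.18 in THP-1, -3.29 in MOLM-13 and -0.81 in OCI-AML-3. ACSS2 was called higher in 7, from 0.17 in THP-1 SKO to 1.5 in U937 DKO, and had -0.01 ± 0.087 in OCI-AML-3. INSIG1 was called higher in 6, all of them in U937 and THP-1, and lower in the other 2. PMVK was called lower in 6 and higher in none. ACLY, the citrate lyase gene, and FASN, the fatty acid synthase gene, were each called lower in 7 and higher in none, with fold changes down to -0.48 and -0.63. CYP51A1 passed the test in 1, U937 SKO. Depending on the comparison, 20.6% to 34.1% of all genes tested were higher and 22.8% to 36.5% lower (43.5% to 70.6% in either direction). How often genes outside the members were called in the same direction across the 8 was not counted.

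The remaining sterol enzymes and regulators are given by their calls across these 8 comparisons, beside the same shares of all genes. ACAT2, the thiolase that joins acetyl-CoA units, was called higher in 2 and lower in 6, with fold changes from -0.65 to 0.63. HMGCS1 was called higher in 4 and lower in 3. Its levels in THP-1 were 58.8, 67.3 and 64.4 CPM in sgControl, 86, 85.1 and 91.4 CPM in SKO and 109, 107.9 and 105.4 CPM in DKO, with no overlap between the 3 groups (0.47 ± 0.05 in SKO and 0.86 ± 0.05 in DKO). The mevalonate kinase gene MVK was called higher in 2 and lower in 3, and the decarboxylase gene MVD higher in 2 and lower in 2. FDPS, which makes farnesyl diphosphate, was called higher in 1 and lower in 6 (-0.51 to 0.42), and EBP likewise in 1 and 6 (-0.65 to 0.25). SC5D, a late sterol desaturase gene, was called higher in 4 and lower in 2, and DHCR7 higher in 4 and lower in 3. INSIG2 was called higher in 5 and lower in none, SREBF2 higher in 3 and lower in 2, and SCAP higher in 1 and lower in 4.

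**Figure D5:**
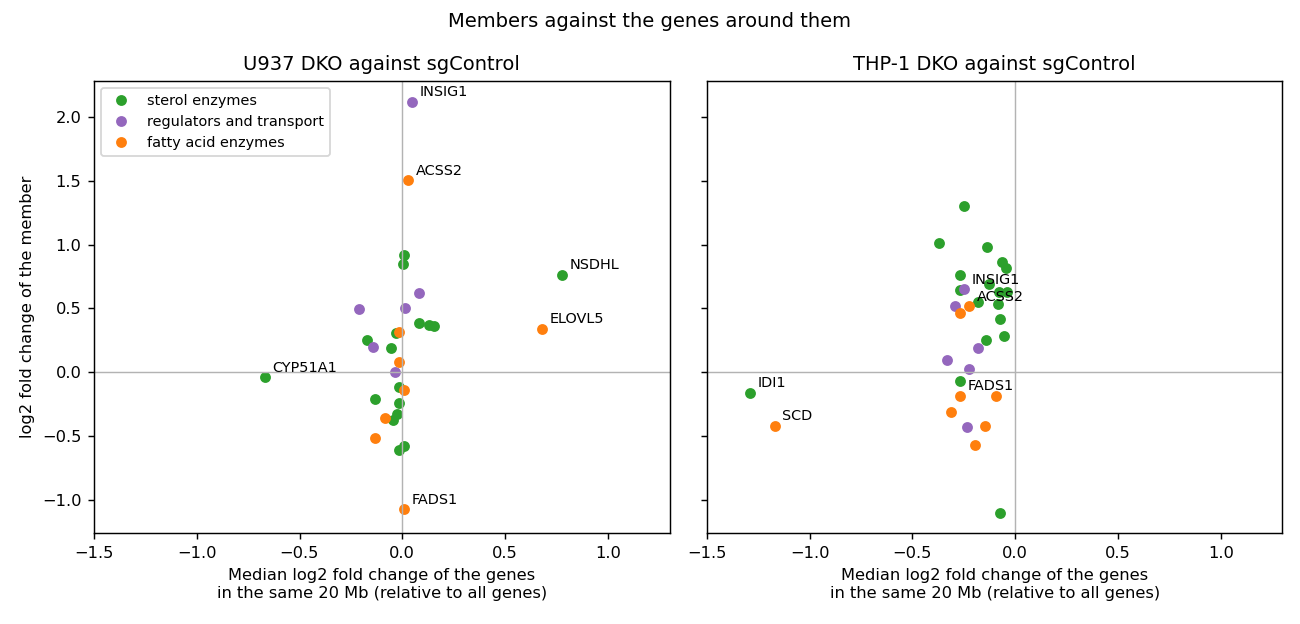
Log2 fold change of each member (vertical) against the median of the genes in the same 20 Mb relative to all genes (horizontal), for DKO in U937 (left) and THP-1 (right). NSDHL and ELOVL5 in U937 and IDI1 and SCD in THP-1 lie in regions that moved as a whole, while INSIG1, ACSS2 and FADS1 in U937 lie in regions with medians of 0.05, 0.03 and 0.01.

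Related genes outside the 33 were read from 5 lists. Of 11 other sterol genes tested in U937 DKO 6 rose and 3 fell, where 33.2% of all genes rose and 34.5% fell. NPC1, which moves cholesterol out of lysosomes, went from 115.6 to 1083 CPM (3.22 ± 0.036, adjusted p = 1.3e-31). Of 11 LXR and sterol efflux genes tested in MOLM-13 SKO 8 rose and none fell (31.8% and 32.2% of all genes), with CYP27A1, a sterol hydroxylase gene, from 44.2 to 380.9 CPM (3.12 ± 0.035). In OCI-AML-3 DKO the same list had 4 higher and 3 lower of 10 (24.3% and 25.6% of all genes). APOE, a lipid carrier gene, fell in THP-1 SKO (-2.79 ± 0.11, 22.5 to 3.22 CPM) and DKO (-2.26 ± 0.11).

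Fatty acid oxidation genes had more members lower than higher in both knockout labels of U937 and THP-1. In U937 SKO 3 of 16 rose and 11 fell, where 30.7% and 31.2% of all genes did, and in DKO 2 rose and 11 fell (33.2% and 34.5% of all genes), with ACAA2, a mitochondrial thiolase gene, at -0.93 ± 0.049 and -1.36 ± 0.05. In THP-1 2 rose, 7 fell and 7 did not pass the test in SKO (20.6% and 22.8% of all genes higher and lower), and none rose and 10 fell in DKO (31.9% and 33.7%), where ECHS1, an enoyl-CoA hydratase gene, went from 106.4 to 27.9 CPM (-1.83 ± 0.059). In MOLM-13 SKO 8 rose and 3 fell (31.8% and 32.2% of all genes), and in OCI-AML-3 DKO 6 rose and 2 fell (24.3% and 25.6%), with CPT1A, the gate of fatty acid entry into mitochondria, from 27.5 to 73.2 CPM (1.42 ± 0.07). Of the other fatty acid synthesis genes 11 of 17 fell and 4 rose in U937 SKO, and 11 of 18 fell and 2 rose in THP-1 DKO, beside the same shares of all genes. ME1, which makes NADPH for synthesis, went from 24.6 to 8.16 CPM in THP-1 DKO (-1.49 ± 0.09). Of 10 genes for SREBP processing 5 rose and 4 fell in U937 SKO, with 61.9% of all genes called in either direction and a list median of 0.08. PAQR3 fell in U937 SKO (-1.03 ± 0.068), U937 DKO (-1.01 ± 0.068), MOLM-13 SKO (-1.26 ± 0.1) and OCI-AML-3 DKO (-0.89 ± 0.1). It also fell in THP-1 DKO (-0.59 ± 0.0755), U937 TPA SKO (-0.58 ± 0.078) and U937 TPA DKO (-0.87 ± 0.081). Its value in THP-1 SKO is not given here.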

How the data were processed

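The poly(A) libraries keep strand, as the kit named in the labels' protocols does. The submitters' processing notes name fastp 0.23.4, STAR 2.7.11b and Subread 2.0.6, with hg38. The authors deposited raw whole-number counts per gene; per the file headers, untreated U937 and THP-1 libraries were counted with featureCounts 2.0.6 against GENCODE 38, without strand, with reads over several genes left out. The table of the TPA, MOLM-13 and OCI-AML-3 libraries names no counting command. No deposited column was left unused.

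All tests used edgeR 4.0.16 under R 4.3.3 (default expression filter, TMM scaling, quasi-likelihood test, Benjamini-Hochberg adjustment at 0.05), with a fit for each line and treatment (9 or 4 libraries) and fits of 18 libraries for TPA and for differences of effects, without covariates. Levels are CPM from one TMM scaling of all libraries over 21649 genes. Medians of 20 Mb leave out genes whose mean log2 CPM is under 2. Promoters and coordinates come from RefSeq GRCh38.p14 and the deposited tables. Scripts were checked on counts simulated from U937 and MOLM-13 SKO with few genes changed. Of changed genes with a log2 size of 1 they recovered 99% and 92%, and of those with 0.5 they recovered 83% and 79.8%. False discoveries were 6.19% and 0.581%. Far more genes differ in the real data, so the check does not cover scaling or error rates in that setting.

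The members and lists were chosen with earlier results of these data known. Fold changes were drawn from SUV39H1, SUV39H2, the up to 3 largest changes past the test in each branch and comparison, members called against the majority of their branch, and up to 2 genes of each related list, and not all that the rule admits are printed. Other values, such as FADS2, SCD, IDI1 and FADS1 in further comparisons and the FADS1 neighbours, were chosen after they had been seen. Statements that groups did not overlap describe genes named mainly for large fold changes. The share of all genes without overlap was not counted, so these statements add no test. Libraries of a group differed by more than sampling noise (chi-square per degree of freedom 2.97 to 11.7), and the labels do not say that they are separate cultures, so the spread behind each p-value may be technical. Scaling by DESeq2 size factors moved median fold changes by -0.03 to 0.061. Alternatives were those factors, DESeq2 1.42.0, no filter, a replicate block, only the compared groups, and each library left out.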

Additional observations from a re-analysis of the deposited data

Results flagged for a closer look

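Results in which an effect differed between lines or treatments are collected here by value, as the test of the difference gave them. The response to TPA in U937 differed between SKO and sgControl cells for 18 members. CYP51A1 was at 0.64, INSIG1 at -0.44 and ACSS2 at -0.703 on the log2 scale. CYP51A1 shares 84.5% of its exon bases with another gene row, which limits its count. Between DKO and sgControl cells the response also differed for 18 members, with FDFT1 at -0.73, INSIG1 at -1.48 and FADS1 at -1.17. A difference of deposited table or clone that varies with the label cannot be told apart from a difference in response.

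The SKO effect differed between U937 and THP-1 for 28 members, with SQLE at -1.11, INSIG1 at 1.33 and FADS1 at -1.12 (U937 minus THP-1). The DKO effect differed for 27 members, with TM7SF2 at -1.19, INSIG1 at 1.51 and ACSS2 at 1.03. TM7SF2 lies at 1.34 to 2.6 CPM in these U937 groups and at 9.22 to 15 CPM in THP-1. These counts stand beside 37.7% and 49.6% of all genes for TPA and 46.9% and 54.4% for the lines. No group of these data has the 4 libraries needed to look for a single library that stands apart.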

How the results depend on the processing

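Of 235 fold changes of named members, none reversed under any alternative run, and 15 lost the test under at least 1. In OCI-AML-3 DKO the 4 members higher became 2 with DESeq2 and 2 without a filter, and 1 to 3 with a library left out, while the 15 lower became 9 to 13 with a library left out. The smallest counts came without sgControl replicate 2 (1 higher) and sgControl replicate 1 (9 lower). For the difference in TPA response of U937 DKO, the 2 members more positive became 4 with DESeq2 size factors, 1 without a filter, 1 with only the groups compared and 1 to 3 with a library left out (1 without U937 sgControl replicate 2). The cause was not tested. Replicate numbers were not treated as pairs. Same-numbered libraries correlated at -0.038 to 0.124 within the lines and treatments, and differently numbered ones at -0.143 to 0.083. With 2 or 3 libraries per group this cannot exclude a pairing. The replicate block changed none of the 38 counts of members by more than 1.5 times: 5 higher and 26 lower in U937 SKO under the block, for example. Added after the data were seen, a term for a code in some U937 library names, or leaving those libraries out, kept the counts within 1.5 times, but TM7SF2 in U937 SKO then had an adjusted p of 0.06. TM7SF2 in U937 DKO lost the test with DESeq2 (adjusted p = 0.091), without sgControl replicate 1 or 2 or DKO replicate 1 or 2 (0.092 to 0.12), and without the libraries of that code (0.25). SCAP in MOLM-13, EBP, INSIG2 and DHCR7 in OCI-AML-3, ACSS2 in THP-1 SKO, and the line difference of SCD for SKO also lost the test under some alternatives. With 2 libraries per group each gene in MOLM-13 and OCI-AML-3 has 2 residual degrees of freedom of its own. The quasi-likelihood test there draws much of the spread from the other genes. Members under 3 CPM, such as TM7SF2 in U937, are limited by depth.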
